A study of Mus musculus with 12 samples.

Results

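Calcium, sodium and other cation channel genes were followed through the promoter methylation of colon epithelium with and without induced Dnmt3b, the enzyme that places methyl groups on CpGs that carried none. Members were all genes in the deposited tables whose symbol starts with Cacna, Cacnb, Cacng, Scn, Hcn, Trpc, Trpm, Trpv or Accn, except 1 gene that the choice left out. That gave 48 members of 12098 genes listed in at least 1 library. The choice went by symbol alone, and it took in Trpc4ap, which encodes a partner protein of a channel and no channel subunit. The tables use older symbols for the acid-sensing channels: Accn1, Accn2, Accn3 and Accn4 are now Asic2, Asic1, Asic3 and Asic4.

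The libraries came from 6 C57BL/6 mice, 3 induced and 3 control, whose colon epithelial cells were isolated. The induced mice drank doxycycline water at 0.5 g/l for 3 months, renewed every 3 days, and the control mice drank plain water. Sex, age, the promoter that drives Dnmt3b and whether control mice carry the same transgene are not stated in the labels, so the drug and the enzyme cannot be told apart. Genomic DNA was cut with MspI at CCGG, and each mouse gave a short-fragment (40 to 120 nt) and a long-fragment (120 to 220 nt) bisulfite library. Each value is the mean CpG methylation of a gene's RefSeq promoters, here in percent. Differences are given in percentage points, or points. The 12 libraries listed 7278 to 10838 genes and 28 to 45 of the members. The files hold no read depth, so no error from counting can be given. In a bulk library, methylation gained within cells and a shift in the mix of cells cannot be told apart. Most markers of colon epithelium had low promoter methylation. Mean levels over 12 tested genes were 0.771% to 2.81% in the 3 induced and 0.116% to 0.699% in the 3 control short-fragment libraries. Over 13 genes tested in long fragments they were 3.97% to 5.91% in induced and 2.68% to 3.385% in control libraries. Of these 13 genes 11 averaged under 10% in control mice. Krt18 was higher, at 30.2% in induced and 22.8% in control mice. These are methylation levels and give no measure of how much of any channel was made.

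Voltage-gated calcium channels are built around a pore-forming alpha1 subunit, with alpha2delta, beta and gamma subunits that set its trafficking and gating. Sodium channels of excitable cells pair a single pore protein with beta subunits, whereas the epithelial sodium channel ENaC takes up sodium from the gut lumen in the distal colon. HCN channels carry the pacemaker current, acid-sensing channels open on protons, and TRP channels respond to lipids, heat, osmotic stress or ions. Most of these genes serve neurons and muscle. CpG-rich promoters of such genes usually carry little methylation in normal tissue, also where the gene is silent.

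Of the 48 members 41 had a value in all 6 short-fragment libraries and 22 in all 6 long-fragment libraries, 20 of them in both. Promoter methylation of most was low in control mice and high in induced mice. In the short fraction 32 of 41 tested members rose (78.0%) and 0 fell, against 27.6% of all 10027 tested genes that rose and 0.0798% that fell (adjusted p under 0.05 in limma, over all genes of the fraction). No member was lower at an unadjusted p under 0.05 either, and only 29 of all 10027 genes were. The median difference was 55.2 points over the 41 members and 0.5 points over all genes. Across long fragments 18 of 22 members rose (81.8%) and 0 fell, against 23.2% and 0.0163% of 6127 genes. Again no member was lower at an unadjusted p under 0.05, and only 2 of all 6127 genes were. The median difference there was 55.4 points over the members and 0.943 points over all genes. Every induced mouse exceeded every control mouse for 36 of the 41 short-fraction and 19 of the 22 long-fraction members, where 39.5% and 38.2% of all genes did. The opposite order was seen in 0 members, and in 0.908% and 0.277% of all genes. Differences over 50 points were found in 22 of the 41 and 14 of the 22 members, where 13.5% and 14.2% of all genes had them. Without control mouse 1, 2 or 3 the long fraction gave 13, 14 or 13 members that changed and 905, 885 or 897 changed genes in all, against 18 members and 1422 genes with every library.

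The members' levels in single libraries show the same separation. The median over the 41 members was 54.5, 57.5 and 68.7% in induced mice 1, 2 and 3, against 1.25, 1.88 and 1.37% in control mice 1, 2 and 3. Every gene's values below are listed in this order of mice. Over the 22 long-fraction members the medians were 54.04, 56.1 and 66.7% in induced mice, against 0.04, 1.98 and 1.14% in control mice. Induced mouse 3 had the highest induced value of 22 of the 41 short-fraction and 17 of the 22 long-fraction members. The mean over all tested genes was highest in that mouse too, at 18.4% over short and 21.2% over long fragments, against 16.3% to 16.9% and 18.3% to 18.7% in the other 2 induced mice. Of the 41 members 35 averaged under 10% in control mice, and 6 did so in induced mice. In control mice 9052 of all 10027 tested genes averaged under 10% too. The median of the control means was 1.57% over the members and 0.133% over all genes. Low control levels were thus not particular to the members.

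**Figure D1:**
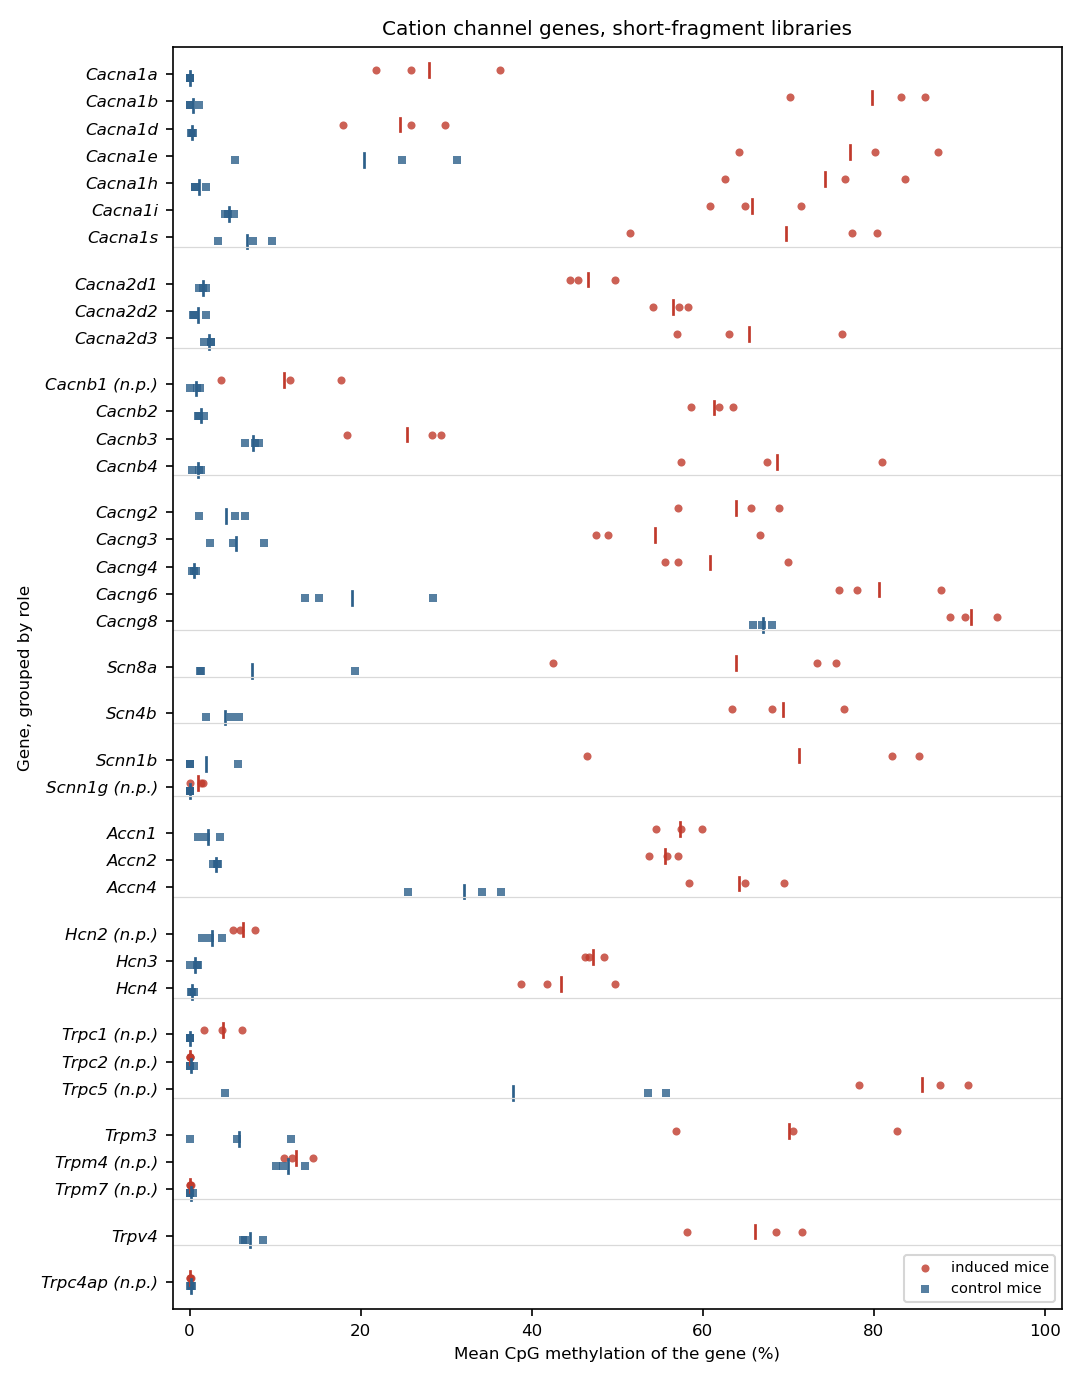
Mean CpG methylation (%) of 37 cation channel genes tested in short-fragment libraries, grouped by role. Red circles are the 3 induced mice, blue squares the 3 control mice, vertical ticks the group means, and n.p. marks the 9 genes that did not pass the test. The 28 shown genes that rose have all red circles to the right of all blue squares.

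RefSeq promoter sequences of assembly GRCm38.p6, 250 bases before to 50 after a start site, are shown for 1 strongly risen member each of the calcium pore, sodium, HCN and TRP groups and for Trpc4ap and Trpm7, which were near 0% in both groups of mice. As single examples, they let the CpG content of some promoters that gained methylation be read beside that of some that did not. Entries were found for 37 of the 48 members. Of the 2 entries of Trpm3 the one with more CpGs is given. Capitals mark CpG dinucleotides, and each line runs 5′ to 3′.
Cacna1b, chr2:24763103-24763402, minus strand: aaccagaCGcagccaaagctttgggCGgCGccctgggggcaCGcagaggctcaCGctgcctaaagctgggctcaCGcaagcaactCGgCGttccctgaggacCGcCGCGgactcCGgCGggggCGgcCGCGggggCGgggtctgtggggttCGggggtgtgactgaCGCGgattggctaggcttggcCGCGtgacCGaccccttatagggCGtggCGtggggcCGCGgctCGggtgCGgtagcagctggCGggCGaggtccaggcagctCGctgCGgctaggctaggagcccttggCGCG
Scnn1b, chr7:121864788-121865087, plus strand: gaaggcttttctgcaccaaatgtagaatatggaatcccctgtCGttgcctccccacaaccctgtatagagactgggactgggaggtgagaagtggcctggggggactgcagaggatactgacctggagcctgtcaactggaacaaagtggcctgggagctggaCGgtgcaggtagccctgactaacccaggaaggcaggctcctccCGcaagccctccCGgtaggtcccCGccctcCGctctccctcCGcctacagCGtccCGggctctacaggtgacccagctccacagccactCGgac
Hcn4, chr9:58822699-58822998, plus strand: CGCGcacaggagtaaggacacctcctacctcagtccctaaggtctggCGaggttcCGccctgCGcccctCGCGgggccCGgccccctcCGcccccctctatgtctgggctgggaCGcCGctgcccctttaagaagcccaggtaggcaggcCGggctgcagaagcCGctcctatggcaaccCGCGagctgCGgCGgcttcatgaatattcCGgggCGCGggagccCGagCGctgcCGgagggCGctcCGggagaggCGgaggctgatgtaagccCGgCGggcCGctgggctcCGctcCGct
Trpm3, chr19:22138796-22139095, plus strand: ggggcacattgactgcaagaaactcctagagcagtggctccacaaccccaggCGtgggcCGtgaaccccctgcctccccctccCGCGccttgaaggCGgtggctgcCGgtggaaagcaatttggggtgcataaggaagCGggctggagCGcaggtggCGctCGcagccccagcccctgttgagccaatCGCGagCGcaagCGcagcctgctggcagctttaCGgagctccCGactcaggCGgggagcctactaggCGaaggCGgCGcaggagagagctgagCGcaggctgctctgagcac
Trpc4ap, chr2:155692335-155692634, minus strand: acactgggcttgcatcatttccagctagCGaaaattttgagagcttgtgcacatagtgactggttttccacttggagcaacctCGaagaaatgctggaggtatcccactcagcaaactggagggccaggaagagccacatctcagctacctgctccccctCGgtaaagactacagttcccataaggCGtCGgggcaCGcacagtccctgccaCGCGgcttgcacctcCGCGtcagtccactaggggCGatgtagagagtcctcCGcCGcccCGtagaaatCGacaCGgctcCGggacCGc
Trpm7, chr2:126876212-126876511, minus strand: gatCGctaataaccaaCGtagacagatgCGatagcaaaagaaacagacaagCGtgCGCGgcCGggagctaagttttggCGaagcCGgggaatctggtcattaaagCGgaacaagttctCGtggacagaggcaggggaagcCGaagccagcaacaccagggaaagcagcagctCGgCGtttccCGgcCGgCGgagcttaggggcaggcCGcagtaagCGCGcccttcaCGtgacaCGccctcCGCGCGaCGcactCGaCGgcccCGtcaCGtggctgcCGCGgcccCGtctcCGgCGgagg
The windows hold 35 CpGs in Cacna1b, 10 in Scnn1b, 31 in Hcn4 and 21 in Trpm3, which rose, and 18 in Trpc4ap and 35 in Trpm7, which stayed near 0%. The median over all 32851 promoters of the table is 7 CpGs. It takes in promoters of genes that were not tested, and no median over the tested genes was taken. The MspI site CCGG, the same on both strands, occurs 1, 2, 6 and 1 times in the 4 promoters that rose, in the same order, and 1 and 5 times in those of Trpc4ap and Trpm7. At least 1 CCGG is found in 52.8% of these RefSeq promoters. Only 33 of the 43 members tested in at least 1 fraction (76.7%) have an entry, too few for a comparison of sequence content between members that rose and members that did not. The labels state neither the authors' promoter window nor their genome build, so these windows need not be the CpGs that were measured.

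Pore-forming calcium channel genes rose in all cases tested, 7 of 7 among short and 5 of 5 among long fragments. Of all genes 27.6% and 23.2% rose, and these shares stand beside every count by role below. The role groups are small. Cacna1b, the N-type channel of presynaptic terminals, had 85.98, 70.2 and 83.2% in induced mice, against 0, 0 and 1.04% in control mice among short fragments. The groups were far apart, with a difference of 79.5 points (standard error 4.59, adjusted p = 0.000536), the largest of any member in that fraction. Among its long fragments the values were 74.96, 69.3 and 85.1% in induced mice, against 0.37, 0.24 and 1.32% in control mice, a difference of 75.8 points (standard error 4.42, adjusted p = 0.00112). The T-type gene Cacna1h had 62.5, 76.6 and 83.6% in induced mice, against 0.62, 0.65 and 1.89% in control mice among short fragments, and rose by 73.2 points (standard error 5.85, adjusted p = 0.00114). Its long-fragment values were 45.9, 51.2 and 80.7% in induced mice, against 4.35, 2.4 and 0.99% in control mice. Induced mouse 3 stood well above the other 2 there, and the rise was 56.7 points (standard error 10.3, adjusted p = 0.0213). Leaving out control mouse 1, 2 or 3 or induced mouse 2 ended this long-fraction call, at adjusted p = 0.0837, 0.0866, 0.0888 and 0.0537.

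The R-type gene Cacna1e differed between control mice in the short fraction, with 64.2, 80.1 and 87.5% in induced mice, against 24.8, 5.3 and 31.2% in control mice. The groups still did not overlap, and the difference was 56.8 points (standard error 9.798, adjusted p = 0.0137). It was lost without induced mouse 2 (adjusted p = 0.05504) or control mouse 1 (adjusted p = 0.0532). Long fragments of Cacna1e had 73.6, 74.1 and 75.5% in induced mice, against 0, 0.51 and 0% in control mice. There both groups were tight and the difference was 74.2 points (standard error 0.572, adjusted p = 6.45e-06), the lowest adjusted p of any member. Cacna1s, the voltage sensor of skeletal muscle, had 51.5, 77.5 and 80.4% in induced mice, against 3.26, 7.37 and 9.59% in control mice among short and 62.5, 76.1 and 67.4% in induced mice, against 0% in all 3 control mice among long fragments. It rose in both fractions, by 63.04 and 68.7 points (adjusted p = 0.00672 and 0.001).

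The smallest rises among the pore genes were those of Cacna1d, an L-type channel of endocrine and sinoatrial cells, and Cacna1a, the P/Q-type channel. Cacna1d had 25.9, 29.8 and 17.9% in induced mice, against 0.17, 0.28 and 0.44% in control mice in the short fraction. That was a rise of 24.2 points (standard error 3.299, adjusted p = 0.00605). Cacna1a had 36.3, 21.7 and 25.9% in induced mice, against 0% in all 3 control mice there, and 35.4, 25.7 and 58.6% in induced mice, against 0.05, 0 and 0% in control mice in the long fraction. It rose by 27.98 points (standard error 4.1, adjusted p = 0.00783) and 39.9 points (standard error 9.301, adjusted p = 0.0451). The long-fraction call was lost without induced mouse 1 (adjusted p = 0.0986) and without any 1 control mouse (adjusted p = 0.146 to 0.148), though all control values of Cacna1a were 0.05% or less. It was also lost when genes with at least 2 libraries per group were admitted to the fit (adjusted p = 0.0502). Cacna1i, another T-type gene, averaged 65.8% ± 5.38 in induced and 4.63% ± 0.519 in control mice (SD, n = 3 each; adjusted p = 0.000356).

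Genes of the accessory calcium channel subunits mostly rose too. All 3 alpha2delta genes, whose products carry channels to the membrane, rose in the short fraction, by 45.02 to 63.2 points. Cacna2d3 had 57.02, 63.1 and 76.3% in induced mice, against 2.44, 2.52 and 1.66% in control mice in that fraction, a rise of 63.2 points (standard error 5.38, adjusted p = 0.00135). Cacna2d1, a binding site of gabapentin, had 44.5, 49.8 and 45.4% in induced mice, against 1.14, 1.88 and 1.61% in control mice, a rise of 45.02 points (standard error 1.55, adjusted p = 0.000183). In long fragments Cacna2d3 had 57.1, 70.9 and 73.7% in induced mice, against 0, 6.88 and 2.57% in control mice (adjusted p = 0.00221), and Cacna2d1 had 25.7, 38.97 and 62.3% in induced mice, against 0, 0 and 0.67% in control mice. The 3 induced values of Cacna2d1 lay far apart and the adjusted p of its rise was 0.04996. It was 0.0554 when genes with at least 2 libraries per group were admitted to the fit. Leaving out any 1 control mouse or induced mouse 2 took it past the threshold, to 0.124 to 0.159. Cacna2d2 averaged 56.5% ± 2.15 in induced and 0.927% ± 0.829 in control mice (SD, n = 3 each; adjusted p = 8.23e-05).

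The beta subunit genes, whose products bind the pore from inside the cell, did not behave alike. Cacnb4 had 57.5, 67.5 and 80.9% in induced mice, against 1.32, 0.32 and 1.15% in control mice among short fragments, a rise of 67.7 points (standard error 6.41, adjusted p = 0.00187), and Cacnb2 averaged 61.4% ± 2.46 in induced and 1.28% ± 0.387 in control mice (SD, n = 3 each; adjusted p = 8.23e-05). Cacnb1, the beta subunit of skeletal muscle, stayed far lower. Its short-fragment values were 17.7, 11.7 and 3.71% in induced mice, against 1.25, 0 and 0.83% in control mice. The groups did not overlap, but the difference of 10.3 points (standard error 3.84, adjusted p = 0.145) did not pass. Without induced mouse 3, its lowest induced value, Cacnb1 passed with a difference of 14.02 points (adjusted p = 0.0203). In long fragments it had 7.96, 6.62 and 10.6% in induced mice, against 0.13, 2.78 and 0.04% in control mice, a rise of 7.397 points (standard error 1.39, adjusted p = 0.0234). That call was lost without induced mouse 1 (adjusted p = 0.0658), control mouse 1 (adjusted p = 0.0957) or control mouse 3 (adjusted p = 0.0954). In 1 fit over both fractions, with fewer genes and a shared spread, the calls were the other way round: Cacnb1 passed in short fragments (adjusted p = 0.0279) and not in long ones (adjusted p = 0.106). On the arcsine square root scale it passed in short fragments (adjusted p = 0.0498).

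Cacnb3 held a pair of promoters with different levels, labelled A and B here in the order of their RefSeq accessions. In long fragments promoter A had 72.7, 70.1 and 86.8% in induced mice, against 55.6, 57.05 and 52.1% in control mice. Promoter B had 26.2, 23.6 and 30.1% in induced mice, against 11.8, 9.46 and 12.5% in control mice. Promoter A was methylated in every control mouse, and B was lower than A in both groups. The differences were 21.6 points for A and 15.4 points for B (limma over all promoters, adjusted p = 0.0488 and 0.00782). In short fragments A had 32.9, 49.4 and 49.1% in induced mice, against 11.6, 9.34 and 11.2% in control mice, and B had 3.82, 7.35 and 9.65% in induced mice, against 4.66, 3.7 and 4.05% in control mice. There A rose by 33.1 points (adjusted p = 0.00984) and the difference of B was 2.803 points (adjusted p = 0.35). The gene value, the mean of both, rose by 17.9 points over short and 18.5 points over long fragments (adjusted p = 0.0177 and 0.021). Both calls were lost without any 1 control mouse (adjusted p = 0.0697 to 0.0749 for short and 0.0828 to 0.0887 for long fragments). The short-fragment call was also lost without induced mouse 2 or 3 (adjusted p = 0.0626 and 0.0535), and the long-fragment call without induced mouse 1 (adjusted p = 0.051).

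Gamma subunit genes rose in 5 of 5 cases in the short fraction. Most of these proteins, the TARPs, carry AMPA receptors of neurons to synapses. Cacng6 had 77.98, 75.9 and 87.9% in induced mice, against 13.5, 15.1 and 28.5% in control mice, a rise of 61.5 points (standard error 5.66, adjusted p = 0.00171). Its neighbour on chromosome 7, Cacng8, had the highest control mean of the members tested in the short fraction, with 88.96, 94.4 and 90.6% in induced mice, against 68.1, 65.9 and 66.98% in control mice. It was methylated in every mouse and still rose, by 24.3 points (standard error 1.65, adjusted p = 0.000743). Cacng2, the stargazin gene, averaged 63.9% ± 6.14 in induced and 4.27% ± 2.84 in control mice (SD, n = 3 each; adjusted p = 0.000615). In long fragments it had 71.6, 45.9 and 66.04% in induced mice, against 6.67, 6.91 and 4.5% in control mice, a rise of 55.1 points (standard error 7.45, adjusted p = 0.00904). Cacng3 averaged 54.4% and 5.38% and Cacng4 60.9% and 0.477% in induced and control mice (adjusted p = 0.00439 and 0.00085).

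Sodium channel genes of excitable cells rose in all cases tested. These were 2 of 2 pore and 2 of 2 beta subunit genes among short fragments, and 1 of 1 of each among long fragments. The beta subunit gene Scn4b had 68.1, 63.5 and 76.5% in induced mice, against 5.79, 4.86 and 1.88% in control mice among short fragments, a rise of 65.2 points (standard error 3.77, adjusted p = 0.000536). Scn8a, a sodium channel of axons, had long-fragment values of 79.5, 74.9 and 81.9% in induced mice, against 7.36, 1.55 and 1.29% in control mice, a rise of 75.4 points (standard error 2.71, adjusted p = 0.000413). Its short-fragment gene value was 42.5, 73.4 and 75.6% in induced mice, against 1.17, 19.4 and 1.37% in control mice. Control mouse 2 was the highest control, and of the controls it alone listed a second promoter, at 38.4%. That second promoter, B, was listed in all 3 induced mice, at 43.03, 88.2 and 88.6%. Promoter A alone, listed in all 6 libraries, had 41.99, 58.6 and 62.6% in induced mice, against 1.17, 0.28 and 1.37% in control mice, a rise of 53.5 points (adjusted p = 0.0032). The gene value rose by 56.5 points (standard error 11.6, adjusted p = 0.0244), a call that 4 of the 6 libraries could each end. Leaving out control mouse 1 gave an adjusted p of 0.0979, control mouse 3 one of 0.0968, induced mouse 2 one of 0.0829 and induced mouse 3 one of 0.0781.

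The genes of ENaC differed from each other. Scnn1b, the beta subunit, had 46.4, 82.1 and 85.3% in induced mice, against 0, 0 and 5.64% in control mice among short fragments. Induced mouse 1 was far below the other 2, and the rise was 69.4 points (standard error 11.9, adjusted p = 0.0133). Without control mouse 1, 2 or 3 the adjusted p was 0.0621, 0.0599 or 0.0544. Long fragments had 82.5, 70.5 and 83.1% in induced mice, against 0% in all 3 control mice, a rise of 78.7 points (standard error 3.89, adjusted p = 0.000808) and the largest of any member in that fraction. Scnn1g, the gamma subunit and the next protein-coding gene on chromosome 7, had short-fragment values of 1.32, 1.6 and 0% in induced mice, against 0% in all 3 control mice. These overlapped, and the difference of 0.973 points (standard error 0.467, adjusted p = 0.258) did not pass. It passed without induced mouse 3, at 1.46 points (adjusted p = 0.00275). Its long fragments, not listed for control mouse 1, had 47.5, 68.01 and 66.9% in induced mice, against 0 and 14.3% in control mice 2 and 3. With genes present in at least 2 libraries of each group admitted, Scnn1g rose there by 53.7 points (adjusted p = 0.0394). Its change could not be compared between fractions in 1 fit, which needed a value in every library. Scnn1a, the alpha subunit, had 99.5, 100 and 66.3% in induced mice, against 70.5 and 83.3% in control mice 1 and 2, in short fragments alone. With that wider admission its difference was 11.7 points (adjusted p = 0.637).

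Acid-sensing channel genes rose in 3 of 3 cases among short and 2 of 3 among long fragments. Accn2, a proton sensor of neurons, had 55.8, 53.7 and 57.1% in induced mice, against 3.32, 3.18 and 2.77% in control mice in the short fraction, a rise of 52.5 points (standard error 0.94, adjusted p = 5.43e-05). Accn1 had 54.5, 57.5 and 59.9% in induced mice, against 1.88, 3.53 and 0.92% in control mice there, a rise of 55.2 points (standard error 1.65, adjusted p = 0.000144). That gene value averaged 2 promoters, except in control mouse 3, which listed promoter B alone. Promoter A had 54.2, 53.1 and 46.25% in induced mice, against 2.95 and 3.69% in control mice 1 and 2. Promoter B had 54.7, 61.9 and 73.6% in induced mice, against 0.82, 3.37 and 0.92% in control mice. B alone rose by 61.7 points (standard error 5.24, limma over all promoters, adjusted p = 0.00139). In long fragments the gene values of Accn1 were 71.97, 71.01 and 86.7% in induced mice, against 11.96, 26.3 and 18.98% in control mice, a rise of 57.5 points (standard error 6.22, adjusted p = 0.00475). The 2 promoters differed there too. Promoter A had 68.5, 66.9 and 89.97% in induced mice, against 23.9, 50.5 and 37.5% in control mice, a difference of 37.8 points that did not pass by itself (limma over all promoters, adjusted p = 0.0685). Promoter B had 75.5, 75.1 and 83.3% in induced mice, against 0, 2.12 and 0.44% in control mice, and rose by 77.1 points (adjusted p = 0.000372). The 3 control values of A lay far apart, whereas those of B were all near 0%. Accn3 was listed in long fragments alone, with 88.6, 98.1 and 94.9% in induced mice, against 94.7, 48.9 and 65.6% in control mice. The groups overlapped, control mouse 1 being as high as the induced mice, and the difference of 24.1 points (standard error 13, adjusted p = 0.338) did not pass. It was 36.6 points without control mouse 1 (adjusted p = 0.0545) and 13.7 points without control mouse 2 (adjusted p = 0.607).

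Accn4 had short-fragment values of 58.4, 64.9 and 69.5% in induced mice, against 25.6, 34.2 and 36.5% in control mice. In long fragments it had 59.8, 56.1 and 70.1% in induced mice, against 0, 9.95 and 3.15% in control mice. The controls thus held partial methylation in short and little in long fragments, and the rises were 32.2 points (standard error 4.38, adjusted p = 0.00605) and 57.6 points (standard error 4.86, adjusted p = 0.00238).

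**Figure D2:**
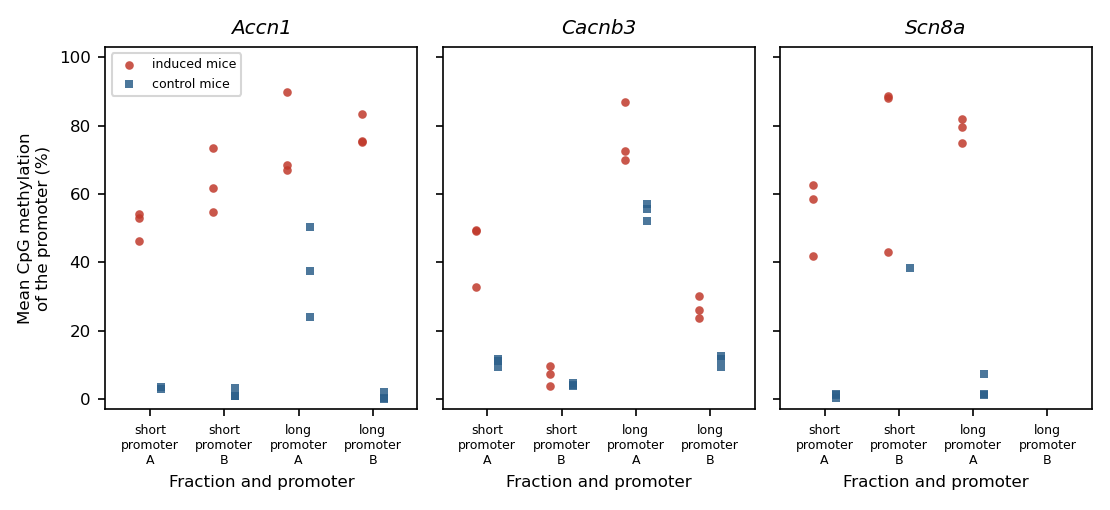
Mean CpG methylation (%) of the 2 listed promoters (A and B, in the order of their accessions) of Accn1, Cacnb3 and Scn8a in short- and long-fragment libraries. Red circles are induced mice, to the left of the blue squares of control mice. In long fragments the control mice lie at 23.9% to 50.5% for promoter A of Accn1 and at 0% to 2.12% for promoter B.

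Among the other members that list more than 1 promoter, Cacna1b, Cacna1s, Cacna2d1, Cacnb1 and Trpm3, all promoters of a gene had identical values in every library, so they add no separate measurement.

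HCN channel genes rose in 3 of 4 cases among short and 2 of 3 among long fragments. Hcn3 averaged 47.1% ± 1.13 in induced and 0.587% ± 0.512 in control mice among short fragments (SD, n = 3 each; adjusted p = 3.57e-05). Hcn4, the main pacemaker channel of the sinoatrial node, had 49.8, 41.8 and 38.8% in induced mice, against 0.55, 0.26 and 0.15% in control mice in short and 50.1, 60.2 and 52.2% in induced mice, against 0.02, 0 and 0% in control mice in long fragments. It rose by 43.1 and 54.2 points (adjusted p = 0.00087 and 0.000999). Hcn2 was low in both groups of mice, with 7.67, 5.1 and 5.84% in induced mice, against 1.43, 3.83 and 2.42% in control mice in short fragments. In long fragments it had 21.8, 10.9 and 23.3% in induced mice, against 0.05, 7.58 and 3.58% in control mice. The groups did not overlap in either fraction, and neither difference passed, at 3.64 points (standard error 0.976, adjusted p = 0.0578) and 14.9 points (standard error 4.25, adjusted p = 0.0805). Without induced mouse 2 the long-fraction difference was 18.8 points and passed (adjusted p = 0.0243). It also passed in 1 fit over both fractions (adjusted p = 0.00483), and in short fragments on the arcsine square root scale (adjusted p = 0.0475).

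Of the TRPC, TRPM and TRPV genes 3 of 8 rose among short and 1 of 3 among long fragments, where 27.6% and 23.2% of all genes did. Trpc4 was tested in long fragments alone, with 72.2, 61.4 and 44.7% in induced mice, against 0% in all 3 control mice, a rise of 59.4 points (standard error 7.58, adjusted p = 0.00761). Trpm3, a heat sensor of sensory neurons, had 82.7, 56.9 and 70.5% in induced mice, against 11.8, 5.53 and 0% in control mice in short fragments, and Trpv4, which opens on osmotic swelling and warmth, had 58.1, 68.6 and 71.6% in induced mice, against 6.23, 8.59 and 6.47% in control mice. They rose by 64.2 and 58.99 points (adjusted p = 0.004 and 0.000718). These genes went to high levels in all induced mice.

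Some of the other TRP genes stayed low, and so did Trpc4ap, which encodes no channel subunit. Trpm7, a channel with a kinase domain used for magnesium balance in most cells, had 0, 0 and 0.17% in induced mice, against 0.41, 0 and 0.08% in control mice. Trpc4ap had 0.16, 0.06 and 0.05% in induced mice, against 0.3, 0 and 0.1% in control mice. Both were near 0% in every mouse (differences of -0.107 and -0.0433 points, adjusted p = 0.645 and 0.808). Trpc1, a widely made TRPC subunit, had 3.83, 1.63 and 6.09% in induced mice, against 0% in all 3 control mice. Its groups did not overlap, and the difference of 3.85 points (standard error 1.22, adjusted p = 0.094) did not pass. Without induced mouse 2 it was 4.96 points and passed (adjusted p = 0.0225), as it did on the logit and arcsine square root scales (adjusted p = 0.0451 and 0.00881). Trpc2, a pheromone transduction channel of the mouse vomeronasal organ, had 0% in all 3 induced mice, against 0.5, 0 and 0% in control mice in short and 0, 0.03 and 12.5% in induced mice, against 0, 0.07 and 0% in control mice in long fragments, with adjusted p = 0.57 and 0.584. The long-fraction difference of 4.15 points rested on induced mouse 3, and was -0.00833 points without it and 6.24 points without induced mouse 1. Its values equalled those of Rnf121 in every tested library, and in short fragments also those of Mrps27 and Ptcd2.

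Trpm4, a channel for monovalent cations opened by calcium, had partial methylation in every mouse. Short fragments had 14.4, 12.01 and 11% in induced mice, against 10.1, 13.5 and 10.9% in control mice, equal in every library to those of Hrc. Long fragments had 20, 42.7 and 42.8% in induced mice, against 20, 15.7 and 39.2% in control mice. The groups overlapped in both fractions and the differences of 0.947 and 10.2 points did not pass (adjusted p = 0.676 and 0.586). Without 1 library the long-fraction difference ran from 5.55 points (control mouse 2 left out) to 17.8 points (induced mouse 1 left out). It was 17.3 points without control mouse 3, 6.44 points without induced mouse 2 and 6.38 points without induced mouse 3, and passed in none of these. Trpc5, the only X-linked member, had 78.3, 90.98 and 87.8% in induced mice, against 53.6, 4.18 and 55.7% in control mice. Control mouse 2 was far below the other 2 controls, and the difference of 47.9 points (standard error 16.3, adjusted p = 0.116) did not pass. The median over 229 X-linked genes was 55.1, 49.04 and 48.5% in induced mice, against 33.96, 0.11 and 33.2% in control mice, so control mouse 2 stood apart for X-linked genes as a whole. Without it Trpc5 differed by 31.02 points and passed (adjusted p = 0.0231). The short-fraction count without control mouse 2 was 31 members and 2309 genes in all, against 32 and 2773 with every library. Zcchc16 had the same values as Trpc5 in the short fraction.

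**Figure D3:**
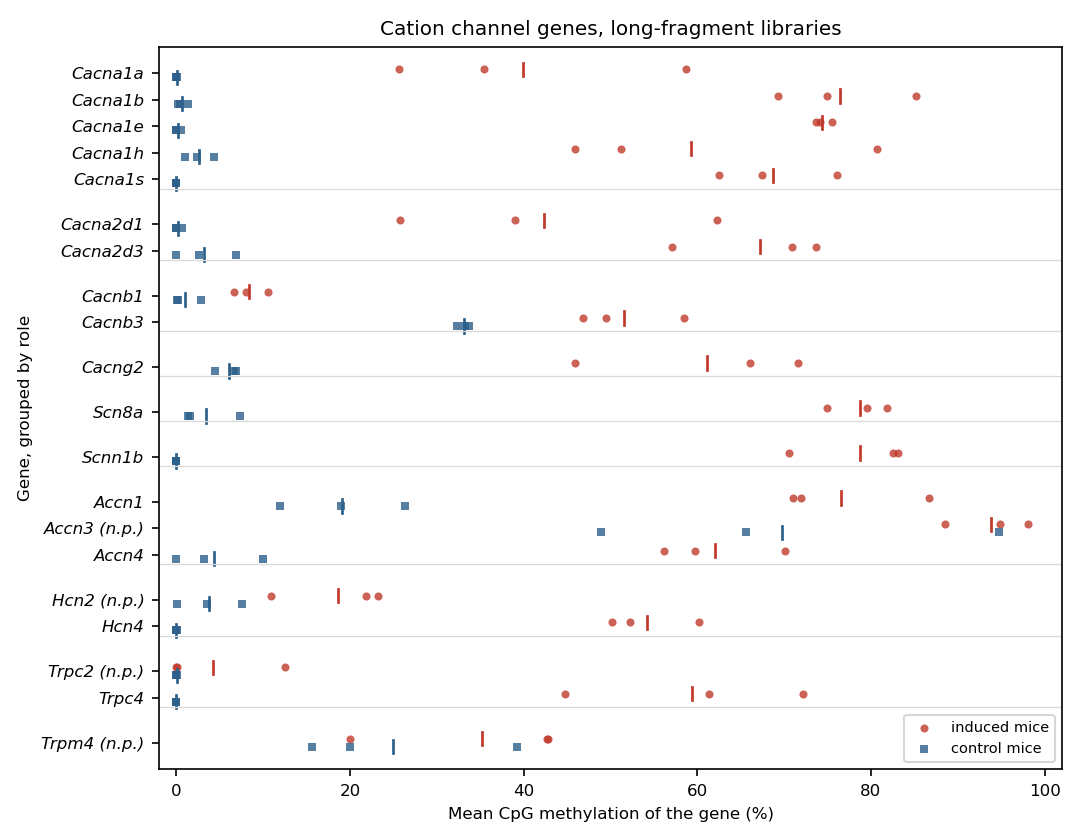
Mean CpG methylation (%) of 20 cation channel genes tested in long-fragment libraries, grouped by role. Red circles are the 3 induced mice, blue squares the 3 control mice, vertical ticks the group means, and n.p. marks the 4 genes that did not pass the test. Accn3 and Trpm4 have overlapping groups and high or partial control levels.

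Some members could not be tested in either fraction for lack of a value in all 6 libraries. Besides Scnn1a these were Scn9a, a sodium channel of pain-sensing neurons, Trpc6, Trpm6, a magnesium uptake channel of gut and kidney, and Trpv2. Trpc6 was at 72.01 and 85% in induced mice 2 and 3, against 0% in control mouse 1, in short fragments. Trpv2 was at 57.6% in induced mouse 3, against 6.98% in control mouse 3, in short fragments. Trpm6 was at 0.11, 19.9 and 0% in induced mice, against 2.35 and 0% in control mice 2 and 3, in the same fraction. Scn9a was listed in a single library, at 2.74% in the long fragments of control mouse 3. These are single values with no test, except that Trpm6 could be fitted with genes in at least 2 libraries of each group, at 5.48 points (adjusted p = 0.692). Long fragments gave single values for 3 members tested in short fragments: Cacnb4 was at 99.7% in induced mouse 1, Trpv4 at 91.5% in induced mouse 1, against 21.6% in control mouse 2, and Trpc5 at 65.2 and 76.1% in induced mice 1 and 2, against 60% in control mouse 3.

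The same wider admission added 8 members to the long fraction. Among these Cacna1d, Cacna1i, Cacna2d2, Cacnb2 and Scnn1g rose, by 53.7 to 72.2 points (adjusted p = 0.00306 to 0.0394). Cacng3 did not pass, with a difference of 45.6 points (adjusted p = 0.107). Of the genes named here, those other than Scnn1g rose in the short fraction.

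The comparison of long with short fragments asked whether the same genes gained to a different extent in DNA cut to another size. Of the 20 members tested in both fractions 16 rose in both, 1 (Cacnb1, whose calls changed with the fit) passed in long fragments alone and 3 (Hcn2, Trpc2 and Trpm4) in neither. The difference was larger in long fragments for 14 and in short fragments for 6. The matching shares of all genes tested in both fractions were not taken, so these counts show nothing particular to the members. Across these 20 genes the differences of both fractions had a Pearson correlation of 0.922 and a Spearman correlation of 0.839, as a description of genes measured in the same mice. A single fit took all 12 libraries, with each mouse as a random block. The change differed between the fractions in 0 of 20 members (limma interaction, adjusted p under 0.05), and in 4.71% of 5309 genes, 2.64% with the larger change in long and 2.07% in short fragments. At an unadjusted p under 0.05 there were 3 members, a count for which the share of all genes was not taken. Accn4 gained 25.4 points more in long than in short fragments (95% interval 11.04 to 39.8, adjusted p = 0.0612), Hcn2 11.3 points more (1.59 to 20.95, adjusted p = 0.240) and Hcn4 11.05 points more (1.304 to 20.8, adjusted p = 0.258). On the logit and the arcsine scale Accn4 passed (adjusted p = 0.0409 and 0.0494). Without induced mouse 2 Hcn2 passed (14.6 points, adjusted p = 0.0255), and without induced mouse 1 Hcn4 did (16.3 points, adjusted p = 0.0178). Without induced mouse 2 Hcn4 was at 7.21 points (adjusted p = 0.463). Intervals were wide, as for Scnn1b, from -19.1 to 37.8 points, so differences of that size between the fractions could not be seen there.

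**Figure D4:**
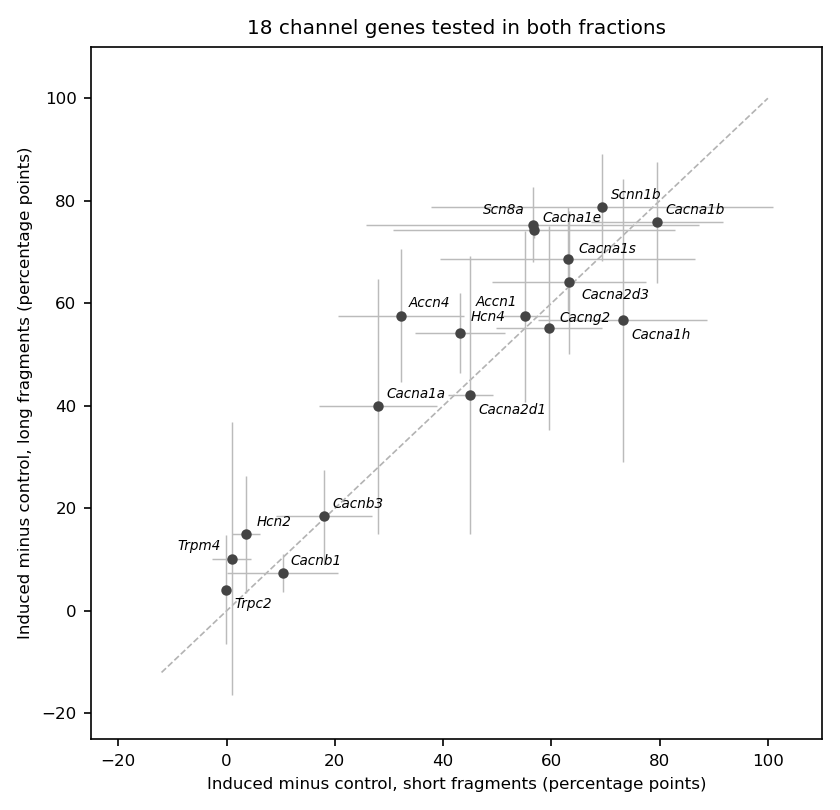
Difference of induced minus control mice (percentage points) in long fragments (vertical axis) against short fragments (horizontal axis) for 18 members tested in both fractions. Points are limma estimates, bars their 95% intervals, and the dashed line marks equal differences. Accn4 lies above the line, at 57.6 points in long and 32.2 points in short fragments.

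Other genes of cation handling, from lists of names, were set beside the members and beside all genes, of which 27.6% rose in short and 23.2% in long fragments. The differences between these shares were not tested. Among calcium release and store-operated entry genes 4 of 11 (36.4%) rose and 1 fell in the short fraction, and 4 of 7 (57.1%) rose in the long fraction. The gene that fell was Stim1, the calcium sensor of internal stores, which averaged 0% in induced and 0.383% in control mice (adjusted p = 0.0401). Ryr2, the calcium release channel of heart muscle, averaged 50.6% ± 3.83 in induced and 3.42% ± 0.554 in control mice in short fragments (SD, n = 3 each; adjusted p = 0.000307). The junctophilin gene Jph3 averaged 69.1% ± 6.41 in induced and 1.75% ± 0.442 in control mice (adjusted p = 0.000435). Of the calcium pump and exchanger genes 6 of 11 (54.5%) rose among short and 1 of 5 (20%) among long fragments. Slc24a2, a sodium/calcium/potassium exchanger, averaged 76.1% ± 7.54 in induced and 5.297% ± 6.62 in control mice in short fragments (adjusted p = 0.00103). Among channel regulators 14 of 21 (66.7%) rose over short and 7 of 15 (46.7%) over long fragments. Stac2, which binds muscle-type calcium channels, averaged 79.7% ± 5.94 and 1.48% ± 0.656, and Camk2b, a calmodulin-dependent kinase, 76.2% ± 12.4 and 0.96% ± 0.0625, in induced and control mice (adjusted p = 0.000283 and 0.00159). Among other TRP and cation channel genes 2 of 10 (20%) rose in the short fraction, a share below that of all genes. They were the ATP-gated channel gene P2rx5, at 78.5% ± 9.42 in induced and 0.187% ± 0.201 in control mice, and Trpa1, an irritant sensor, at 69.3% ± 4.83 in induced and 8.70% ± 5.21 in control mice (adjusted p = 0.000702 and 0.000664). In long fragments 3 of 8 of that list (37.5%) rose.

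Potassium channel genes, the family most like the members, rose in 48 of 54 cases among short (88.9%) and 29 of 37 among long fragments (78.4%), with median differences of 58.4 and 58.8 points. The members had 78.0% and 81.8%, with medians of 55.2 and 55.4 points. The difference between the families was not tested. A colon preparation can also hold other cells. Of the enteric neuron and glia markers 9 of 9 rose among short and 3 of 3 among long fragments, where 27.6% and 23.2% of all genes did. These shares of all genes stand beside each marker count below. The mean of the 9 ran from 61.3% to 69.5% in the induced and 1.67% to 2.49% in the control libraries. Stromal, muscle and endothelial markers rose in 8 of 9 and 3 of 3 cases, with means of the 9 from 54.4% to 68.4% in the induced and 6.04% to 7.37% in the control libraries. Enteroendocrine markers rose in 4 of 4 cases in each fraction, with short-fraction means of 51.8% to 57.1% in the induced and 1.01% to 2.05% in the control libraries. Immune markers were tested in 2 genes per fraction, of which 1 rose among short and 2 among long fragments, with short-fraction means of 22.8% to 36.3% in the induced and 0.48% to 1.54% in the control libraries. Colon epithelium markers rose in 2 of 12 cases among short (16.7%) and 0 of 13 among long fragments. The marker lists are small, and their differences from the shares of all genes were not tested. Promoter methylation of the neuron and glia, stromal, enteroendocrine and some immune markers rose with that of the members. These levels do not measure how many such cells were present. The part of such cells in the result was not tested.

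**Figure D5:**
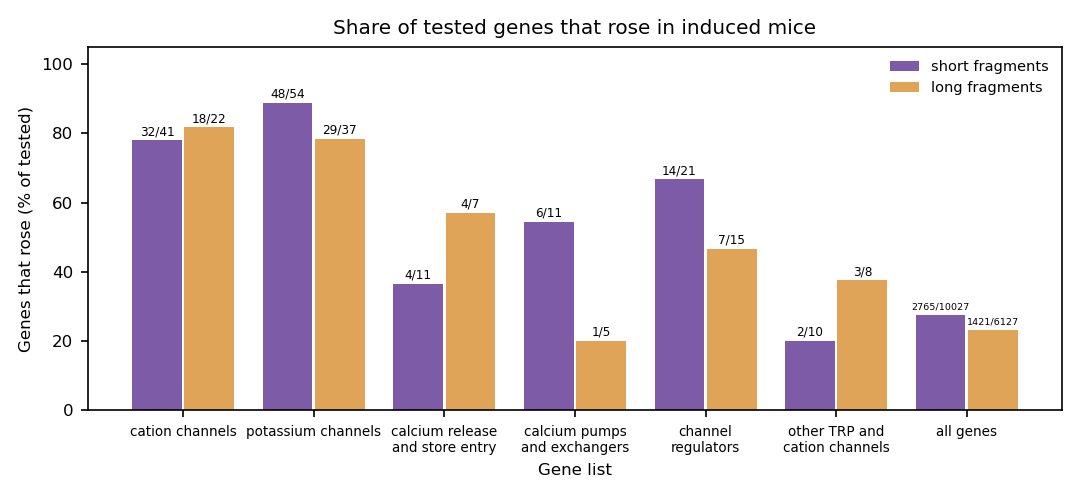
Share (% of tested genes) that rose in induced against control mice (limma, adjusted p under 0.05) for the cation channel members, related gene lists and all genes, in short- and long-fragment libraries. Numbers above the bars are genes that rose over genes tested. The members stand at 78.0% and 81.8%, all genes at 27.6% and 23.2%.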

How the data were processed

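Reduced representation bisulfite sequencing was done on 12 libraries, a short- and a long-fragment library from each of 3 induced and 3 control mice. Per the labels' protocols, DNA was cut with MspI, size-selected on a gel, ligated to methylated adapters, bisulfite-treated with added conversion cycles, amplified and sequenced on a Genome Analyzer II. In the deposited files the authors give the mean CpG methylation as a fraction (0 to 1), per gene and per RefSeq promoter. The sources used here name no aligner, build, promoter window or coverage filter. Depth is unknown, so each value weighs the same. Bisulfite reads also count hydroxymethylcytosine and unconverted cytosine as methylation.

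Fractions were turned into percent. Genes with a value in all 6 libraries of a size fraction were compared, induced minus control, with limma 3.58.1 (lmFit, eBayes, two-sided) in R 4.3.3, and p-values were adjusted by Benjamini-Hochberg over all tested genes (threshold 0.05). Every adjusted p comes from this fit unless another is named. The change in long minus short fragments was tested in 1 fit over 5309 genes that took each mouse as a random block (within-mouse correlation 0.0674), since the series design splits each mouse in 2. Promoters were fitted the same way. Summaries used Python 3.11.15 with pandas 2.3.3 and scipy 1.17.1, and figures matplotlib 3.10.9.

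Members and lists were chosen with earlier results of these data known. Per-mouse values are given for the 8 largest changes per fraction, the largest and smallest change of each role, and any fall or interaction that passed. Of the other lists up to 3 genes with the largest differences per fraction are eligible; Stim1 was named after its value was seen. The gene the choice left out, and the single values of some members that stay in the counts, are not reported here. Alternatives were another presence filter, logit and arcsine square root scales, a variance trend, promoter values, a fit over all libraries, a replicate block, collapsing identical genes and leaving out each library. The comparison of fractions was also fitted without the random block for each mouse. Gene IDs of all 48 members were found in the RefSeq gene table of GRCm38.p6, which was used for names, chromosomes and neighbours; no member coordinates were taken from it.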

Additional observations from a re-analysis of the deposited data

How the results depend on the processing

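Of 733 short- and long-fraction values of single members under the alternatives, 667 kept direction and side of the threshold. Control and induced mice share replicate numbers without being the same animals. Correlations of deviations between same-numbered mice ran from -0.0498 to 0.0736 in the short and 0.00102 to 0.0366 in the long fraction. The own number was best in 3 of 3 cases in the long and 1 of 3 in the short fraction. With 3 mice per group these values cannot decide whether same-numbered mice were handled together. With a replicate block 28 members and 2114 genes passed in the short fraction, against 32 and 2773 without. In the long fraction 9 members and 652 genes passed, against 18 and 1422 without. The block leaves few degrees of freedom. One fit over all 12 libraries tested fewer genes, 20 members among 5309 genes. In the short fraction it called 17 of these 20 members and 1575 of the 5309 genes. Leaving out 1 library gave 28 to 32 members and 2227 to 3029 genes in the short fraction, and 13 to 18 members and 885 to 1528 genes in the long fraction. The number of members whose change differed between fractions was 0 in the main fit. It was 1 on the logit scale, 1 on the arcsine square root scale and 0 to 1 without 1 mouse. Without the random block for each mouse it was again 0. Collapsing genes with identical values gave 33 short-fraction and 18 long-fraction members, and all genes were not counted under that setting.

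Reversals concerned differences that did not pass. Trpc4ap was at 0.000148 on the arcsine square root scale. Without 1 library Trpc4ap ran from -0.11 to 0.04 points, Trpm7 from -0.188 to 0.0167, Trpm4 from -0.0117 to 1.93 and Trpc2 from -0.25 to 0 in the short fraction, and Trpc2 from -0.00833 to 6.24 in the long fraction. The cause of these changes was not tested. Each group held 3 mice and read depth is unknown. Leaving out 1 library ended calls of members with spread values (Cacna1a and Cacna2d1 in long, Scnn1b in short fragments). It also ended calls of members with closer values (Cacnb3 in both fractions, Cacnb1 in long fragments). Cacnb4 in short fragments, with an induced SD of 11.75, kept its call throughout. The reason was not tested.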
